A study of Homo sapiens with 4 samples.

Results

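Condensin is the ring-shaped complex that folds chromatin fibres into rod-like mitotic chromosomes, and Ki-67, the product of MKI67, coats those chromosomes and keeps them apart. The genes described here are the 8 condensin subunit genes, SMC2, SMC4, NCAPD2, NCAPD3, NCAPG, NCAPG2, NCAPH and NCAPH2, together with MKI67. They were chosen by name, with earlier results of these data known, as the rows whose NCBI Gene identifier carries one of these current symbols. All 9 were found among the 23459 genes listed in each library. The cells were hTERT RPE-1, a wild type human line from the retinal pigment epithelium immortalized with telomerase. They were held for 48 h in medium with 0.1% FBS, by which the authors arrested them in G0/G1. They were then exposed to 200 μM merbarone, a drug that blocks the catalytic cycle of TOP2 without trapping it on DNA. Polyadenylated RNA was sequenced from 2 biological replicates at 4 h (240 minutes) and 2 at 8 h (480 minutes). Untreated cells were not analysed here, so every difference is between the later and the earlier exposure, and time with the drug cannot be told apart from time in low-serum medium.

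Both human condensins share a pair of ATPases, SMC2 and SMC4, whose long coiled coils form the arms of the ring. A kleisin closes the ring and carries a pair of HEAT-repeat proteins, which bind DNA. Condensin I uses NCAPH, NCAPG and NCAPD2 for these positions, and condensin II uses NCAPH2, NCAPG2 and NCAPD3. Condensin II is nuclear throughout the cell cycle, whereas condensin I reaches chromosomes after the nuclear envelope breaks down. MKI67 is transcribed in cycling cells and is low in resting ones, which is why its protein is used as a marker of proliferation.

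All 9 genes fell from 4 h to 8 h, and they fell by different amounts. NCAPG and NCAPH, the HEAT-repeat protein and the kleisin of condensin I, dropped to 30.8% and 34.0% of their 4 h mean. MKI67 dropped to 44.9%. The other 6 genes, which are both SMC genes, NCAPD2 and the 3 condensin II genes, were left at between 59.4% and 66.5%. Each of the 9 had an adjusted p below 0.05 in the quasi-likelihood test of edgeR, where 18.8% of the 12559 genes retained for testing passed in this direction and 19.9% in the other. NCAPG, NCAPH and MKI67 also had an absolute log2 fold change (log2FC) above 1 and so counted as differentially expressed genes (DEGs), 3 of 9, beside 3.88% of the retained genes called lower by the same rule, 1.45% called higher and 5.33% in either direction. Both 8 h libraries lay below both 4 h libraries for 9 of 9 genes, against 34.9% of the retained genes. In bulk RNA, fewer cells that express a gene and less of its RNA per cell cannot be told apart.

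Since the genes fell together, their promoters were searched for the letters of elements known from cell cycle genes. The window for each gene was the 300 bases from 250 before to 50 after a RefSeq transcription start (GRCh38.p14), and 11 such windows covered 8 of the 9 genes, all but NCAPH2, with 2 each for SMC2, SMC4 and NCAPD3. Each window was searched for only in its own gene and the sequence beside it on GRCh37, the assembly that hg19 represents. Every window matched at 1 position there, and coordinates are given on that build. The cell cycle genes homology region (CHR), searched as TTTGAA on both strands, is a promoter element of many genes that peak in G2 and mitosis. It occurred in at least 1 window of 7 of the 8 genes, against 13.7% of the 10183 retained genes with a window. The stretches of 30 bases around each match are shown because they are the feature that most of these genes share, with the match in capitals, read 5′ to 3′ on the strand of the gene (TTCAAA is the same element on the opposite strand).
MKI67, chr10:129924717-129924746, minus strand: ttagcgccagaaTTTGAAtcttcgttttcg
MKI67, chr10:129924699-129924728, minus strand: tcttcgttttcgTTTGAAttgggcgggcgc
NCAPG, chr4:17812555-17812584, plus strand: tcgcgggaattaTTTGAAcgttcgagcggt
NCAPD2, chr12:6603111-6603140, plus strand: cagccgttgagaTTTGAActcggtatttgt
SMC4, chr3:160117351-160117380, plus strand: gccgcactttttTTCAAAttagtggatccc
SMC2, chr9:106856575-106856604, plus strand: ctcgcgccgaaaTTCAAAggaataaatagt
NCAPD3, chr11:134093847-134093876, minus strand: gcgggagcgagcTTTGAAagttgagcacgg
NCAPG2, chr7:158497446-158497475, minus strand: gcgccggcgggtgcgTTTGAAtctggtccg

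The matches lay at different distances from the start. In MKI67 they began 47 and 29 bases before it, in NCAPG 35, in SMC4 75 and in NCAPD2 145 bases before it. In SMC2 and NCAPD3 the match spanned the start of the window that held it, and in NCAPG2 it began at base 36 after the start. SMC2, SMC4 and NCAPD3 each also had a window at another start without a match. In NCAPD3 the window without a match, chr11:134095306-134095605, was the one that holds the annotated 5′ end of the gene. NCAPH was the gene without a match although its fall was the second in size. The last 150 bases before the start of MKI67, NCAPG and NCAPH are shown to set the promoters of the 3 DEGs side by side, with TTTGAA again in capitals.
MKI67, chr10:129924688-129924837, minus strand: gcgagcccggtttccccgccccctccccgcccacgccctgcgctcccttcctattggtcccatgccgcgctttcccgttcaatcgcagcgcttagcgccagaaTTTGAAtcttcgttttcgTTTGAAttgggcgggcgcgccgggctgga
NCAPG, chr4:17812452-17812601, plus strand: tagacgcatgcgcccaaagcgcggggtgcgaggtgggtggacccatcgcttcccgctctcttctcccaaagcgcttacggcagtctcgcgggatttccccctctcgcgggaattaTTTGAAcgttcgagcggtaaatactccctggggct
NCAPH, chr2:97001354-97001503, plus strand: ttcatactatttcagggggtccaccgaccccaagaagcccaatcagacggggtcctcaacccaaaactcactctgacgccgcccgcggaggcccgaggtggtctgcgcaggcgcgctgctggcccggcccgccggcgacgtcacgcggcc

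The other elements occurred in shares nearer to those of the retained genes. CCAAT, the letters of the NF-Y element, occurred in 4 of 8 genes against 43.4% of the retained genes, and GGGCGG, the GC box, in 6 of 8 against 77.8%. Of the E2F-like words TTTCCCGC, TTTGGCGC, TTCCCGCC and TTGGCGCC, matches occurred in 1 gene, NCAPD3, as a pair that overlap each other, against 10.6% of the retained genes. In MKI67 the TTTGAA nearest the start shares a base with CCAAT on the opposite strand, which in turn overlaps GGGCGG. A match of letters is a description of sequence, and binding was not measured.

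Library depth ranged from 8064450 to 10324697 counts, with both 8 h libraries smaller than both 4 h ones. Replicates differed from each other by more than read sampling, with a chi-square of 2.67 per degree of freedom at 4 h and 3.84 at 8 h, and by far less than libraries of different times, where it was at least 21.9. Of all retained genes 487 were lower and 182 higher at 8 h. That split was 641 and 125 when libraries were scaled by size alone, a setting in which the median over all genes was −0.11 in place of 0.00, and 340 and 264 when a trend with mean expression was removed by cyclic loess, and the 3 DEGs named above were DEGs in both cases. The label of the cells was checked on marker genes. MITF and OTX2, transcription factors of the pigment epithelium, had 669 to 882 and 132 to 193 counts. The epithelial keratins KRT8 and KRT18 had 1927 counts or more and VIM, the mesenchymal intermediate filament, 88366 or more, whereas KRT19 and EPCAM had 0 and RPE65, BEST1, RLBP1, LRAT, TYR, TYRP1 and DCT had at most 7 counts in any library and PMEL at most 12. The defining markers of the differentiated epithelium were thus near or at 0. Markers of blood (PTPRC), endothelium (PECAM1) and neurons (RBFOX3) had at most 8, 3 and 0 counts.

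MKI67 (chromosome 10, 129894923 to 129924687, minus strand, hg19) had the most reads of the 9 genes. Scaled by TMM to a common effective library size, its count was 2489 and 2644 in the replicates at 4 h against 1209 and 1095 at 8 h. The times were far apart, and the replicates of either time close. The mean went from 2566 ± 109 to 1152 ± 80.8 (SD, n = 2 each), a log2FC of −1.15 (standard error 0.08, adjusted p = 4.12e-09 in edgeR). With each library left out in turn, the log2FC stayed between −1.23 and −1.09 and MKI67 was a DEG each time. In glmTreat, which asks whether the absolute log2FC exceeds 1, MKI67 did not pass, while NCAPG and NCAPH did.

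NCAPG (chromosome 4, 17812602 to 17846488, plus strand) encodes the HEAT-repeat protein of condensin I that clasps DNA together with the kleisin. Its normalized count was 356 and 337 at 4 h against 98.2 and 116 at 8 h. Both 8 h values lay far below both 4 h values. The mean went from 347 ± 13.5 to 107 ± 12.3 (SD, n = 2 each), a log2FC of −1.70 (standard error 0.15, adjusted p = 3.9e-08 in edgeR). Ordered from the largest fall, it was in place 75 of the 12559 retained genes. The last exons of NCAPG overlap those of LCORL on the opposite strand over 1634 bases, and the use of strand in counting was not stated. LCORL itself had 88 to 118 counts and went the other way, from 84.3 ± 6.41 to 124 ± 5.16 after scaling (SD, n = 2 each), with a log2FC of 0.56 and an edgeR adjusted p of 0.0228, so NCAPG and its neighbour moved in opposite directions.

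NCAPH (chromosome 2, 97001504 to 97042829, plus strand) encodes the kleisin that closes the condensin I ring. It had 352 and 338 normalized counts at 4 h against 112.5 and 122 at 8 h. These values were close to those of NCAPG in all 4 libraries. The mean went from 345 ± 9.64 to 117 ± 6.55 (SD, n = 2 each), a log2FC of −1.56 (standard error 0.14, adjusted p = 7.61e-08 in edgeR), in place 116 of 12559 from the largest fall. No other listed gene with a known GRCh37 position (22518 of 23459 had one) overlaps NCAPH.

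NCAPD2 (chromosome 12, 6602522 to 6641121, plus strand), the remaining condensin I subunit and a HEAT-repeat protein, fell less. Its normalized count was 1626 and 1618 at 4 h against 991 and 937 at 8 h. The groups were well separated and the replicates nearly equal. The mean went from 1622 ± 5.57 to 964 ± 38.3 (SD, n = 2 each), a log2FC of −0.75 (standard error 0.08, adjusted p = 7.93e-07 in edgeR), short of the fold-change threshold. Its exons overlap 383 bases of those of MRPL51, a mitochondrial ribosomal protein gene on the opposite strand, whose log2FC was −0.21 (edgeR adjusted p = 0.0599).

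The ATPase genes fell by nearly the same amount as NCAPD2. SMC2 (chromosome 9, 106856541 to 106903700, plus strand) had 948 and 850.4 normalized counts at 4 h against 600.3 and 486 at 8 h. SMC4 (chromosome 3, 160117062 to 160152742, plus strand) had 1686 and 1345 at 4 h against 952 and 896 at 8 h. In both genes replicate 1 was the higher library at either time, and the times did not overlap. The log2FC was −0.72 for SMC2 (standard error 0.10, adjusted p = 2.47e-05 in edgeR). It was −0.71 for SMC4 (standard error 0.10, adjusted p = 1.43e-05 in edgeR). With libraries left out in turn the value ran from −0.89 to −0.58 for SMC2 and from −0.87 to −0.55 for SMC4, and the falls of these partners of 1 heterodimer differed by less than their standard errors.

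SMC4 overlaps several listed genes. TRIM59, a ubiquitin ligase gene on the opposite strand, shares 1553 exonic bases with SMC4 and fell from 228 ± 34.7 to 86.0 ± 18.9 after scaling (SD, n = 2 each), with a log2FC of −1.42 and an edgeR adjusted p of 7.42e-06, in the same direction as SMC4. It had at most 281 counts in a library where SMC4 had 1879, and its part in the fall of SMC4 was not tested. IFT80, a cilium gene that shares 243 exonic bases, had a log2FC of −0.11 (edgeR adjusted p = 0.384). The host introns of SMC4 also hold the miRNA genes MIR15B and MIR16-2, which had 0 counts in all libraries. Libraries of polyadenylated RNA are not made to capture miRNAs, so these counts do not show whether they were present.

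The 3 condensin II genes fell by similar amounts. NCAPG2 (chromosome 7, 158423861 to 158497495, minus strand), the HEAT-repeat counterpart of NCAPG, had 1022 and 1042 normalized counts at 4 h against 656 and 593 at 8 h. NCAPD3 (chromosome 11, 134020008 to 134095398, minus strand), the counterpart of NCAPD2 that binds chromatin, had 569.8 and 633 at 4 h against 355 and 391 at 8 h. The groups were apart in both genes. The log2FC was −0.72 for NCAPG2 (standard error 0.09, adjusted p = 4.44e-06 in edgeR). It was −0.69 for NCAPD3 (standard error 0.11, adjusted p = 4.7e-05 in edgeR). NCAPD3 shares 1889 exonic bases with JAM3 and 249 with VPS26B, both on the opposite strand, with log2FC of 0.14 and −0.16 (edgeR adjusted p = 0.203 and 0.17), so neither neighbour passed the threshold.

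NCAPH2 (chromosome 22, 50946653 to 50963209, plus strand), the kleisin of condensin II, had the smallest fall. Its normalized count was 328 and 346 at 4 h against 237 and 211 at 8 h. The times did not overlap. The log2FC was −0.58 (standard error 0.13, adjusted p = 0.00106 in edgeR), and with a library left out in turn its adjusted p in edgeR rose to at most 0.0221. NCAPH2 shares 857 exonic bases with SCO2, a mitochondrial copper chaperone gene on the opposite strand with 118 to 148 counts and a log2FC of 0.13 (edgeR adjusted p = 0.554).

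**Figure D1:**
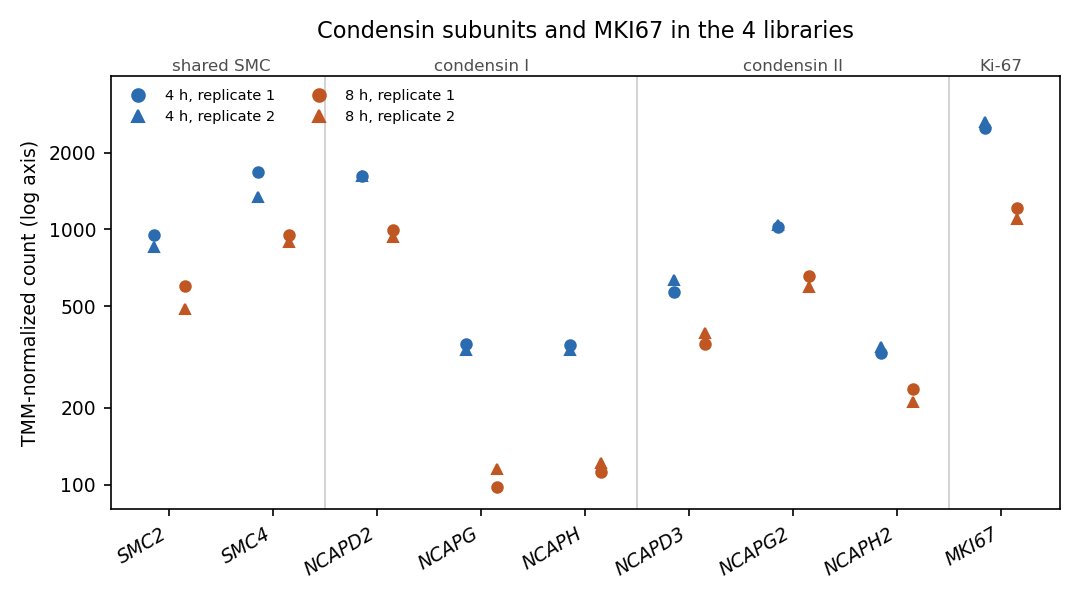
TMM-normalized counts (log axis) of the 9 genes, 1 point per library, circles for replicate 1 and triangles for replicate 2, blue for 4 h and orange for 8 h. The 8 h points lie below the 4 h points in every gene, with the widest gap in NCAPG (337 and 356 against 98.2 and 116) and NCAPH.

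The fold changes thus formed 3 levels. NCAPG and NCAPH lay at −1.70 and −1.56, MKI67 at −1.15 and the other 6 genes between −0.75 and −0.58. The median of the 9 genes was −0.72 beside 0.00 for all retained genes, of which 5% lay below −0.94. Over 8 other settings of test, scaling, filter or block, log2FC ran from −1.81 to −1.63 for NCAPG and from −1.67 to −1.49 for NCAPH. For MKI67 it ran from −1.28 to −1.15, and these 3 genes were DEGs in 8 of 8 settings. Those 8 do not include glmTreat, in which NCAPG and NCAPH passed and MKI67 did not. With the threshold on absolute log2FC set at 0.5, all 9 were DEGs, beside 12% of the retained genes called lower by that rule. None of the other 6 genes reached the threshold of 1 in any of the 8 settings, with NCAPD2 reaching −0.86 with scaling by library size alone and with cyclic loess.

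**Figure D2:**
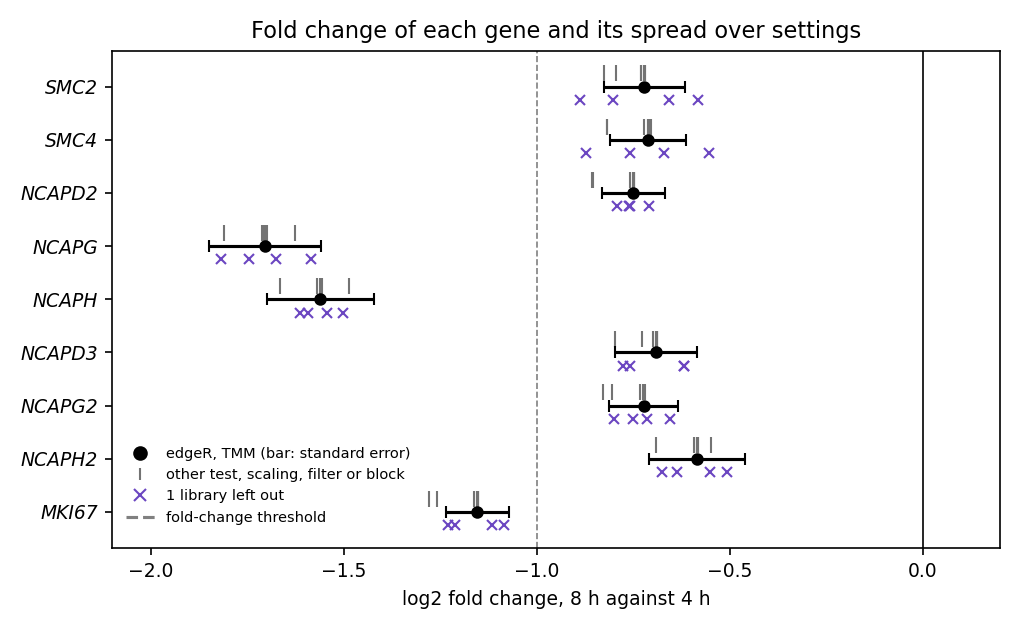
Log2 fold change of 8 h against 4 h for each gene, with the edgeR value and its standard error in black, 8 other settings as grey ticks above and 4 fits with 1 library left out as crosses below; the dashed line is the fold-change threshold of −1. NCAPG, NCAPH and MKI67 stay beyond the threshold in every setting drawn, and the other 6 genes stay short of it. The glmTreat test, which MKI67 did not pass, is not drawn.

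Condensin I and II can be compared position by position, since each has its own kleisin and its own pair of HEAT-repeat proteins. The ratio of levels per kilobase of exon was taken in each library on the log2 scale. For the kleisins, NCAPH over NCAPH2, it was −0.45 and −0.59 at 4 h against −1.63 and −1.35 at 8 h. For NCAPG over NCAPG2 it was −0.97 and −1.08 at 4 h against −2.19 and −1.81 at 8 h. In both pairs the condensin I gene lost about the same amount relative to its counterpart, by −0.97 and −0.98, and the times did not overlap. The difference between the fitted fold changes was −0.98 (combined standard error 0.19) for the kleisins and −0.98 (combined standard error 0.17) for NCAPG and NCAPG2. The combined standard error is the root of the summed squared standard errors of the 2 genes. It treats them as independent, although both were measured in the same libraries. For NCAPD2 over NCAPD3 the ratio was 3.04 and 2.89 at 4 h against 3.01 and 2.79 at 8 h, so that the times overlapped and the difference of the fold changes, −0.06 (combined standard error 0.13), was smaller than its error. These differences are given with their errors and were not tested, and a two-sided exact permutation test of 2 against 2 libraries cannot go below 0.333. The 3 condensin I genes held 60.4% and 59.0% of the summed level of the 6 specific subunits at 4 h against 53.7% and 55.2% at 8 h. That share depends on the length used, an alternative chosen after seeing the data. Per kilobase of the canonical transcript it was 52.5% and 51.0% at 4 h against 46.6% and 47.7% at 8 h, and per kilobase of positions where a read lies within 1 exon 51.3% and 49.9% against 46.3% and 47.4%. The share was lower in both 8 h libraries with all 3 lengths, whereas the side of 50% on which it lay at 8 h turned with the length.

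**Figure D3:**
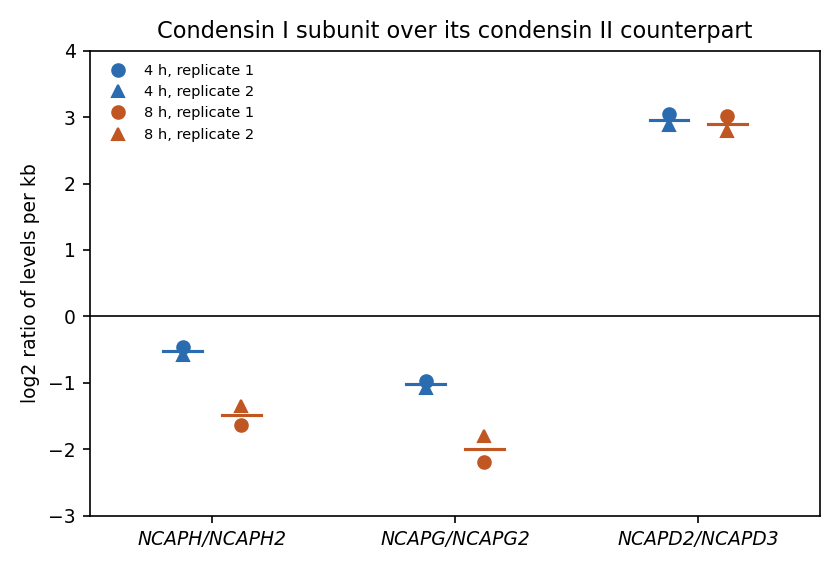
Log2 ratio of each condensin I subunit to its condensin II counterpart in levels per kilobase of exon, 1 point per library (circles replicate 1, triangles replicate 2), with bars at the mean of 4 h (blue) and 8 h (orange). NCAPH/NCAPH2 and NCAPG/NCAPG2 are lower in both 8 h libraries, and NCAPD2/NCAPD3 overlaps between the times.

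Levels can be compared between genes only per length. As TMM-normalized CPM (counts relative to the depth of the library) per kilobase of the annotated exons, the order at 4 h was NCAPD2 at 26.2 ± 0.09, MKI67 at 20.8 ± 0.89, SMC4 at 19.4 ± 3.08, NCAPG2 at 15.2 ± 0.20 and SMC2 at 14.5 ± 1.11 (SD, n = 2 each). Below them came NCAPH2 at 7.89 ± 0.30, NCAPG at 7.46 ± 0.29, NCAPH at 5.50 ± 0.15 and NCAPD3 at 3.35 ± 0.25 (SD, n = 2 each). MKI67 and SMC4 overlapped between libraries, as did NCAPG2 and SMC2. At 8 h NCAPD2 was still first, at 15.5 ± 0.62, and NCAPH was last, at 1.87 ± 0.10 (SD, n = 2 each). With this length, NCAPG, at 2.30 ± 0.26 (SD, n = 2), could then no longer be told from NCAPD3, at 2.08 ± 0.14 (SD, n = 2).

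The order depends on the length that is used. The authors' alignment was ungapped, so reads across a splice junction were lost. A read of 75 bases fits within 1 exon at 92.1% of the positions of the canonical MKI67 transcript, which has one very long exon, and at 49.9% of those of NCAPG2. Per kilobase of such positions, NCAPG2 rose to place 2 at 4 h, with 54.3 ± 0.73, and MKI67 was in place 4, with 23.0 ± 0.98 (SD, n = 2 each). NCAPD3 moved from place 9 to place 7, and its annotated exons add up to 18698 bases and its canonical transcript to 7369. At 8 h NCAPD3 was above NCAPG per kilobase of such positions, with 8.07 ± 0.56 against 3.67 ± 0.42 (SD, n = 2 each). Per kilobase of the canonical transcript it was also above NCAPG at 8 h, with 5.28 ± 0.37 against 2.43 ± 0.28 (SD, n = 2 each). NCAPD2 stayed in first place and NCAPG and NCAPH below NCAPG2 and NCAPH2 with either length, at both times. Changes between the times do not depend on length.

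**Figure D4:**
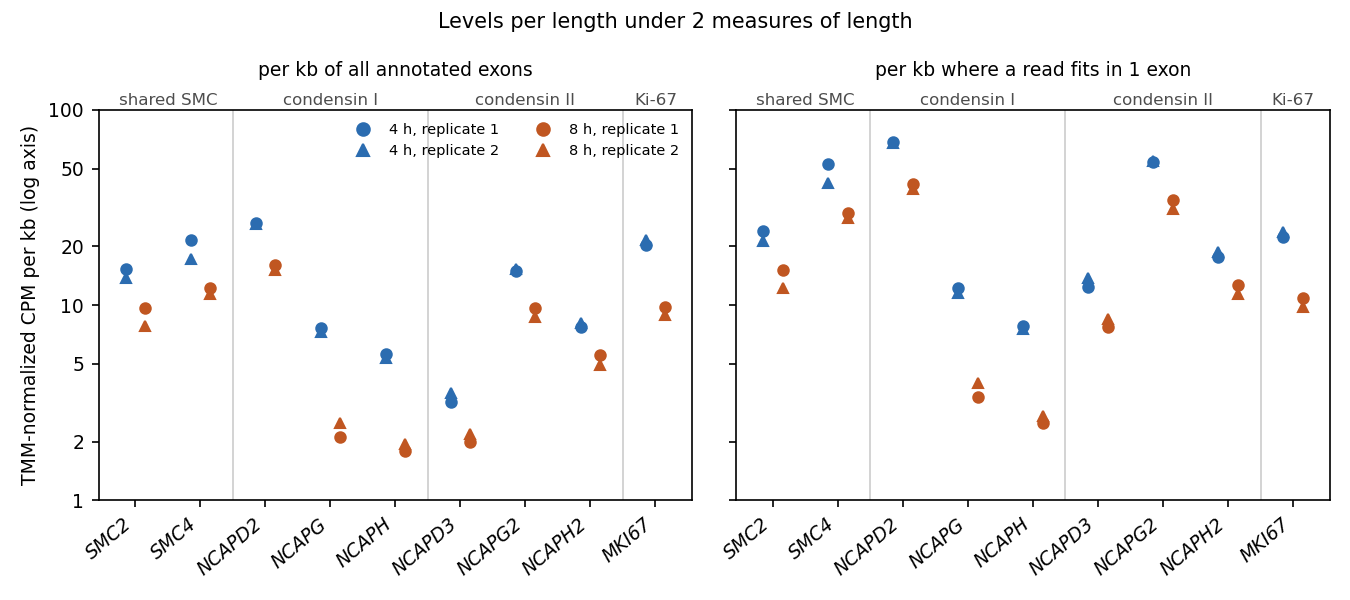
TMM-normalized CPM per kilobase (log axis) of the 9 genes in each library (circles replicate 1, triangles replicate 2, blue 4 h, orange 8 h), per kilobase of all annotated exons on the left and per kilobase of positions where a read fits within 1 exon on the right. NCAPD2 is highest in both panels, and NCAPG2 and NCAPD3 take higher places on the right.

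Genes that act on condensin or work beside it were counted next. Of 18 condensin regulators and partners, all retained, 7 were lower DEGs and 0 were higher ones, and at an adjusted p below 0.05 alone 13 were lower and 1 was higher, with a median log2FC of −0.62. Over all retained genes the shares were 3.88% lower and 1.45% higher DEGs, and 18.8% lower and 19.9% higher by adjusted p alone, with a median of 0.00. The 4 abundant DEGs with the largest fall act in cell division. CCNB1, the cyclin that activates CDK1 at mitotic entry, fell from 670.4 ± 46.8 to 214 ± 43.7 (SD, n = 2 each), with a log2FC of −1.64 and an edgeR adjusted p of 1.1e-08. PLK1, a kinase that phosphorylates condensin II, fell from 730.3 ± 56.9 to 236 ± 5.65 (SD, n = 2 each), with a log2FC of −1.63 and an edgeR adjusted p of 2.38e-09. KIF4A, a chromosome-bound kinesin that works with condensin I, and CCNA2, cyclin A, had log2FC of −1.53 and −1.35 (edgeR adjusted p = 1.67e-07 and 4.29e-07). PHF8, a histone demethylase, and AKAP8, an anchoring protein that binds condensin, were nearest to no change, with log2FC of 0.02 and −0.04 (edgeR adjusted p = 0.928 and 0.88).

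The targets of merbarone are in the same list, since TOP2A is a structural partner of condensin on mitotic chromosomes. TOP2A had a log2FC of −1.10 (standard error 0.08), within the error of that of MKI67, while TOP2B, which is also made in resting cells, had −0.26 (standard error 0.09; edgeR adjusted p = 0.0279). TOP2A was a DEG and TOP2B was not.

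Of 12 Ki-67 partners, 2 were lower DEGs, 5 were lower and 3 higher at an adjusted p below 0.05, and the median log2FC was −0.14. The shares over all retained genes were 3.88%, 18.8% and 19.9%, so the 3 higher genes are near the number that share gives. The DEGs were KIF15, a spindle kinesin (log2FC −1.60, adjusted p = 6.8e-07 in edgeR), and CDCA2, which recruits protein phosphatase 1 to chromosomes at mitotic exit (log2FC −1.22, adjusted p = 1.65e-05 in edgeR). NIFK, a nucleolar protein that binds the forkhead-associated domain of Ki-67, and PPP1CC, a catalytic subunit of that phosphatase, were nearest to no change, with log2FC of 0.04 and −0.06 (edgeR adjusted p = 0.834 and 0.601).

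Cohesin and the SMC5/6 complex are relatives of condensin built on the same plan, and of 21 genes of these complexes and their loaders and regulators 2 were lower DEGs, while 10 were lower and 4 higher at an adjusted p below 0.05. Beside the 3.88%, 18.8% and 19.9% of all retained genes, the 4 higher genes are again near the general share. The median log2FC was −0.20 for 12 genes of cohesin and its regulators and −0.37 for 8 genes of SMC5/6, SMCHD1 being the remaining gene, beside −0.72 for the 8 condensin subunits. The DEGs were SLF1, which recruits SMC5/6 to damaged chromatin, at −1.60 (edgeR adjusted p = 1.74e-05), and ESCO2, the acetyltransferase that establishes cohesion in S phase, at −1.60 (edgeR adjusted p = 1.37e-06). NSMCE2 and STAG2, a ligase and a core subunit, were nearest to no change, at 0.09 and 0.11 (edgeR adjusted p = 0.666 and 0.404).

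The 20 proliferation markers that are read beside Ki-67 all had a log2FC below 0, where the median over all retained genes was 0.00. Of these genes, 14 were lower DEGs, 19 were lower at an adjusted p below 0.05 and 0 were higher, beside 3.88%, 18.8% and 19.9% of all retained genes, with a median log2FC of −1.14, close to the −1.15 of MKI67. CCNB1, BIRC5 and TOP2A stand in this list and in that of the condensin regulators. NDC80 and NUF2, kinetochore proteins that grip microtubules, had log2FC of −2.31 and −1.61, and AURKA, a spindle pole kinase, −1.60 (edgeR adjusted p = 9.59e-08, 1.38e-06 and 6.15e-08). PTTG1, the separase inhibitor securin, which has near-identical copies in the genome, was the gene that did not pass, at −0.18 (edgeR adjusted p = 0.206), and TYMS, an enzyme of thymidylate synthesis, was next at −0.35 (edgeR adjusted p = 0.00593).

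**Figure D5:**
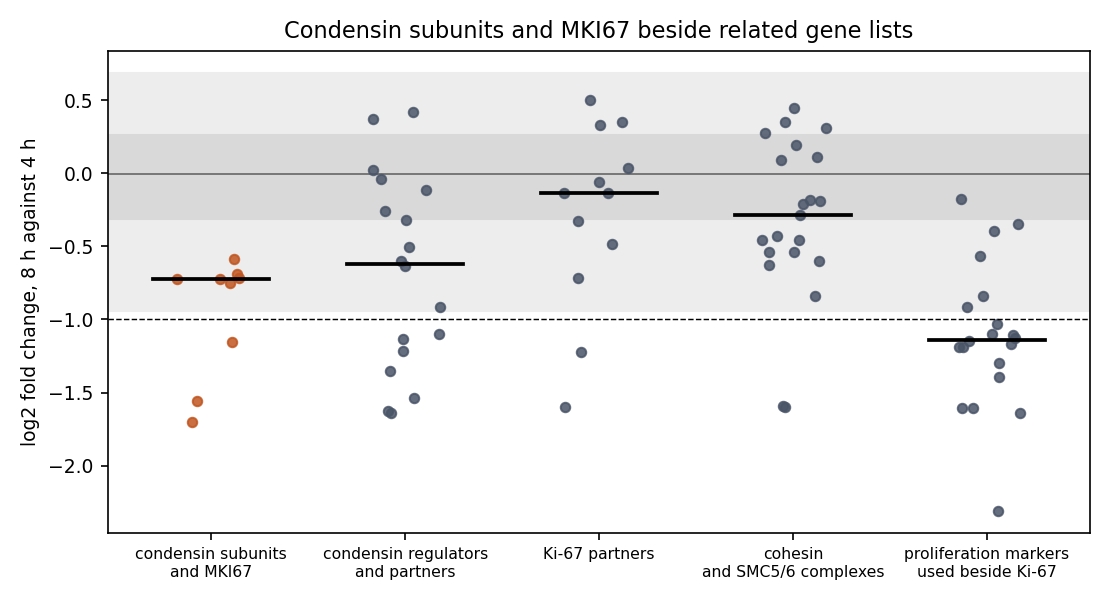
Log2 fold change of 8 h against 4 h for the 9 genes (orange) and for the genes of 4 related lists (grey), 1 point per gene with the median as a bar; dark and light bands hold the middle 50% and 90% of all retained genes and the dashed line is −1. The 9 genes lie between −1.70 and −0.58, and the proliferation markers have the lowest median, −1.14.

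Among the 9 genes, profiles were compared by the Euclidean distance between log2-CPM values over the 4 libraries, each gene centred on its mean. The closest were NCAPD2 and NCAPG2, a distance of 0.06 apart, although they belong to different complexes. NCAPG and NCAPH were 0.16 apart, and the most distant were NCAPG and NCAPH2, at 1.14. Among 9363 other genes whose normalized count averaged 100 or more, those nearest to MKI67 were CHAF1A, CMKLR1, ASF1B, TCHP and SLC25A12, at 0.05 to 0.08 over 4 libraries. CHAF1A and ASF1B are histone chaperones, with log2FC of −1.12 and −1.20. The nearest to the mean of the 8 condensin subunits were NBEAL2, NUP107, PPIA, NASP and PCBD2, at 0.05 to 0.07, with log2FC between −0.97 and −0.87. That mean combines NCAPG and NCAPH, at −1.70 and −1.56, with subunits between −0.75 and −0.58, so these genes match no single subunit. Their log2FC follows from choosing them by distance over the same libraries. NASP is a histone chaperone and NUP107 a nuclear pore protein, and PPIA has many processed pseudogenes, which makes its count of single-position reads uncertain.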

How the data were processed

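RNA-Seq counts of 4 libraries of RPE-1 cells were used, 2 at 4 h and 2 at 8 h of merbarone, grouped by the titles of the samples. The authors mapped single reads of 75 bases to hg19 with Bowtie 1.2.0 (version from the submitters' processing notes), kept reads with a single position, and deposited raw counts per gene by NCBI Gene identifier; gene annotation, counting tool and use of strand are not given in the sources used here. Symbols came from a RefSeq table (23308 of 23459 genes), and positions and exon lengths from GENCODE on GRCh37.

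The filter required a CPM above 1 in 2 libraries or more, which left 12559 genes, the 9 described among them. After TMM normalization the later time was set against the earlier one by the quasi-likelihood test of edgeR 4.0.16 (R 4.3.3), with time as the only term and Benjamini-Hochberg adjustment over all retained genes. DEGs had an adjusted p below 0.05 and an absolute log2FC above 1. A standard error is the log2FC divided by the root of F. Limma-Voom (limma 3.58.1), DESeq2 1.42.0, glmTreat, library size, RLE and cyclic loess scaling, other filters, a replicate block and leaving out each library were alternatives. The biological coefficient of variation was 6.52%.

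The 9 genes, the 4 gene lists and the tests were chosen with earlier results of these data known. Of each list, the text names up to 4 DEGs with the largest fold change and a normalized count averaging 100 or more at the higher time, and the 2 genes nearest to 0; it also names listed genes that overlap the 9, TOP2A, TOP2B, and the 5 genes with the nearest profiles.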

Additional observations from a re-analysis of the deposited data

How the results depend on the processing

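The number of DEGs, 669, ran from 507 (DESeq2) to 766 (library size alone) over the other tests, scalings, filters and the block, and from 547 to 760 with 1 library left out, where the lone library of a time is assumed to vary like the other pair. It was 4867 without the fold-change threshold and 84 with glmTreat, which tests for an absolute log2FC above 1. In glmTreat 2 of the 9 genes passed, NCAPG and NCAPH, so MKI67 was lost, and with a threshold of 0.5 all 9 were DEGs, as were 12% of all retained genes in this direction. The 9 log2FC kept their sign and an adjusted p below 0.05 in all other settings run. A fit with replicate number as a block called 691 DEGs, of which 665 were among the 669, and 3 of the 9 genes were DEGs and 9 had an adjusted p below 0.05, as without it. Replicate differences of the 2 times had a correlation of 0.05 over all retained genes and 0.11 over those with a mean count of at least 100, and nothing in the labels ties same-numbered libraries to 1 culture, so no pairing was assumed. With lengths restricted to positions where a read fits within 1 exon, the log2 ratios at 4 h and 8 h were −1.24 and −2.21 for NCAPH/NCAPH2, −2.19 and −3.16 for NCAPG/NCAPG2, and 2.39 and 2.32 for NCAPD2/NCAPD3. The lowest count of any of the 9 genes was 93, in NCAPG at 8 h.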

Other observations

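Further members of the lists, chosen after their values were seen, moved as follows. The HP1 genes CBX1, CBX3 and CBX5, whose products bind methylated histone H3 and also Ki-67, were all lower at 8 h, with log2FC of −0.33, −0.48 and −0.72 (edgeR adjusted p = 0.00475, 0.00246 and 6.6e-07). The nucleolar genes NPM1 and PES1 were higher, at 0.50 and 0.35 (edgeR adjusted p = 0.00296 and 0.00363), and NCL, nucleolin, had −0.13 (edgeR adjusted p = 0.131). NPM1 has many pseudogene copies, so its counts are uncertain.

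Within cohesin, SMC1A and SMC3 had log2FC of −0.63 and −0.43 (edgeR adjusted p = 6.41e-06 and 0.00142), whereas WAPL, which releases the ring, and MAU2, which loads it, were higher, at 0.27 and 0.45 (edgeR adjusted p = 0.0232 and 0.000759). AURKB, INCENP, CDCA8 and BIRC5, which encode the chromosomal passenger complex, had log2FC of −0.60, −0.64, −0.51 and −0.92 (edgeR adjusted p at most 0.00372), all short of the fold-change threshold. CSNK2A1, a kinase that phosphorylates condensin I in interphase, was the condensin regulator that was higher at an adjusted p below 0.05, at 0.42 (edgeR adjusted p = 0.000837). KMT5A, of the same list, had 0.37 and did not pass (edgeR adjusted p = 0.053).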
